A study of Rattus norvegicus with 54 samples.

Results

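The levels of mature miRNAs in liver were compared with those in kidney of rats that had received vehicle alone. All vehicle libraries of the 2 tissues were taken, which gave 9 of the 54 libraries of the series. Every line of the count table entered, that is 832 lines, of which 641 had at least 1 read in these 9 libraries (526 in liver and 599 in kidney). The rats were male Sprague-Dawley animals, 9 weeks old by the labels. Of the liver rats, 3 had received 0.5% methylcellulose and 3 had received corn oil, both once by oral gavage, and liver was taken 24 h post-dose. The 3 kidney rats had received 0.9% sterile saline once by the intravenous route, and kidney was taken 72 h post-dose. All rats were fasted overnight before necropsy, and no toxicant was given to any of them. Whole tissue pieces were extracted, and which part of the kidney was used is not given in the sources used here. Liver and kidney came from different rats. Tissue, vehicle, route and time, and the code in the column headers (L5 for all liver and L4 for all kidney libraries, its meaning not given), cannot be told apart by this design.

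A miRNA is a short RNA that guides the silencing complex to messenger RNAs, and its seed, bases 2 to 8, is the stretch that pairs with the target. It is cut from the 5p or the 3p arm of a hairpin, and 1 arm usually dominates. Related miRNAs share a seed and differ further along, and neighbouring hairpins are often transcribed together. The liver is known for miR-122, which hepatocytes make in very high amounts, while the kidney derives from posterior mesoderm, where the miRNAs embedded in the Hox gene clusters are active. In a bulk tissue library, fewer cells of a type and less RNA per cell cannot be told apart.

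Of the 80 miRNAs that the rule for naming took, 74 were matched to a mature sequence of RefSeq (rat assembly GRCr8); the others were miR-802-5p, miR-802-3p, miR-429, miR-200a-3p, miR-378b and miR-196a-3p. The seed is in capitals in each sequence below, written 5′ to 3′. The first set shows arms that were higher in liver and are described with their values.
miR-122-5p: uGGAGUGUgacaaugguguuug
miR-122-3p: aACGCCAUcaucacacuaa
miR-31a-5p: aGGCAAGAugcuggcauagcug
miR-148a-3p: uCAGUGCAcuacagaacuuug
miR-148a-5p: aAAGUUCUgagacacucugacuc
miR-193a-3p: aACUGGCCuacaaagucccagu
miR-21-5p: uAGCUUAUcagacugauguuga
miR-365-3p: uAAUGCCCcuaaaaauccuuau

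The second set shows arms that were higher in kidney. The pair miR-196a-5p and miR-196b-5p shares the seed AGGUAGU, and miR-30a-5p, miR-30c-5p and miR-30e-5p share GUAAACA.
miR-196a-5p: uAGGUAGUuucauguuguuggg
miR-196b-5p: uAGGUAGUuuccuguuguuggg
miR-10b-5p: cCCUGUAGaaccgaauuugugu
miR-10a-5p: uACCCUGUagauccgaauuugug
miR-653-5p: uUGAAACAuucucuacugaac
miR-541-5p: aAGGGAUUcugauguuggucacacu
miR-30a-5p: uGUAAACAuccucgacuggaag
miR-30c-5p: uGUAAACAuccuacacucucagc
miR-30e-5p: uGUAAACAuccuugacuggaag
miR-204-5p: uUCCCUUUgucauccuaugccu

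The third set shows miRNAs with 1 seed that lay in opposite directions between the tissues: the let-7 family (GAGGUAG), the miR-29 family (AGCACCA), miR-101 (ACAGUAC), miR-125 (CCCUGAG) and the seed AUUGCAC, with miR-92a-3p and miR-25-3p higher in liver and miR-363-3p higher in kidney.
let-7a-5p: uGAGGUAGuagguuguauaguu
let-7e-5p: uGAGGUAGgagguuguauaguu
let-7b-5p: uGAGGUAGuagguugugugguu
miR-29a-3p: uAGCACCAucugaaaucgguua
miR-29b-3p: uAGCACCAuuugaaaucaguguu
miR-29c-3p: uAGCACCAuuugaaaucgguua
miR-101a-3p: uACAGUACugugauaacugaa
miR-101b-3p: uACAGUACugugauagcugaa
miR-125a-5p: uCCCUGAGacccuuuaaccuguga
miR-125b-5p: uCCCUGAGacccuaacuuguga
miR-92a-3p: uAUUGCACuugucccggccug
miR-25-3p: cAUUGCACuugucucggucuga
miR-363-3p: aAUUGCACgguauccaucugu

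The saline kidney libraries held 3315675, 3591541 and 626171 reads on miRNAs, so that the third had about the depth of the liver libraries. The liver libraries held 611352 to 651096 reads after methylcellulose and 410242 to 686738 after corn oil. Across 310 miRNAs, Pearson's r of log levels was 0.977 to 0.993 within kidney and 0.763 to 0.793 between the tissues (a description, since miRNAs of 1 library are not independent). Levels are given as CPM (counts of a miRNA relative to all miRNA reads of its library, scaled with TMM factors), with the SD over 6 liver or 3 kidney libraries. Intervals on reads cover counting error only. Among miRNAs of at least 100 CPM in kidney, kidney library 3 was at least 2-fold from the mean of the other kidney libraries for 2 of 126, miR-23b-3p and miR-26a-5p, and the other kidney libraries for none. By the same measure, of 117 miRNAs in liver, corn oil library 2 was low for miR-200a-3p and corn oil library 3 high for miR-200b-3p. The defining markers followed the labels: miR-122 and miR-802 were high in every liver library and low in every kidney library, and miR-10b-5p, the miR-196 pair and miR-204-5p were the reverse.

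Both tissues were dominated by few miRNAs. In each liver library 4 miRNAs held 50% of the reads, and 26 to 28 held 90%; in kidney these numbers were 4 to 5 and 25 to 27. The most abundant miRNA of liver was miR-22-3p, a broadly expressed miRNA, with a lowest level of 206680, a median of 231473 and a highest of 238158 CPM, against 87462, 99887 and 90108 CPM in the 3 kidney libraries. It was followed by miR-192-5p, a miRNA of liver, gut and kidney epithelium, with 169233 ± 21366 CPM in liver and 80336 ± 7855 in kidney. The most abundant miRNA of kidney was miR-10b-5p, hosted in the HoxD cluster, with 168370, 174103 and 169151 CPM, and it ranked only 55th in liver.

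**Figure D1:**
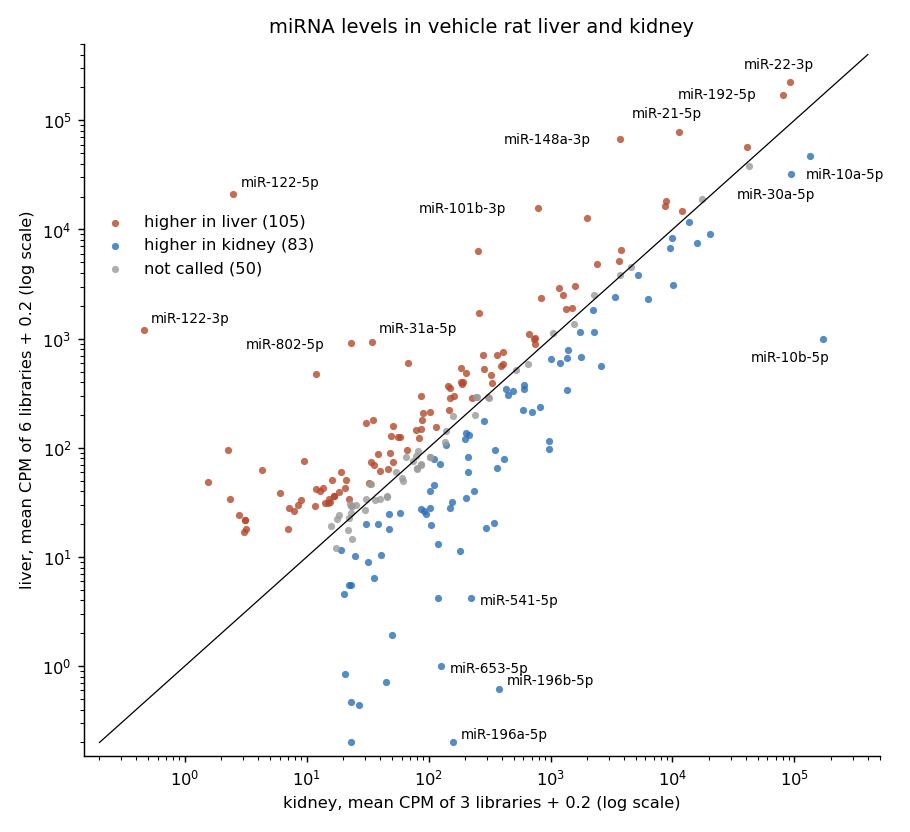
Mean level of each tested miRNA in kidney (x axis, CPM of 3 libraries) and in liver (y axis, CPM of 6 libraries), both on a log scale after adding 0.2 CPM, with further copies of a mature miRNA left out. Points above the line of equal level are higher in liver; miR-122-5p and miR-122-3p stand farthest above it and the miR-196 pair and miR-10b-5p farthest below, and the counts in the key are of miRNAs past the adjusted threshold.

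By edgeR's 2-sided quasi-likelihood test, with p adjusted by the Benjamini-Hochberg method at 0.05, 275 lines had enough reads to be tested. Of these, 118 (42.9%) were higher in liver and 100 (36.4%) higher in kidney, together 79.3%, and 57 did not pass. The liver and kidney libraries did not overlap for 73.1% of the lines tested. Counted once per mature miRNA, 105 of 238 were higher in liver and 83 higher in kidney. Of the lines higher in liver 35, and of those higher in kidney 26, reached the read filter in that tissue only, so that the filter favoured their direction. The difference was at least 4-fold for 30 lines higher in liver and 35 higher in kidney, and at least 10-fold for 14 and 19, by fitted values that for 2 lines with no liver read rest on a prior. The median log2 difference over all 275 lines was 0.11 with TMM, -0.04 with RLE factors and -0.01 with total counts alone, so differences near this size depend on the scaling. miRNAs higher in liver took 75.7% to 77.2% of the reads in liver libraries and 32.2% to 33.2% in kidney libraries. Those higher in kidney took 57.1% to 60.5% in kidney and 15.7% to 16.6% in liver.

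The hepatocyte list holds both arms of miR-122 and of miR-802. All 4 were higher in liver, and 3 of them reached the read filter in liver only, so the count is not read against the share over all lines. miR-122-5p, a regulator of lipid metabolism in hepatocytes, had 19901 (lowest), 21504 (median) and 21876 (highest) CPM in liver and 1.65, 3.69 and 1.57 CPM in the kidney libraries. The groups were far apart, and the kidney values rested on 21 reads in all 3 libraries. The log2 difference was 12.94 ± 0.21 (SE; adjusted p = 7.13e-24). Its other arm, miR-122-3p, had 1129, 1179 and 1356 CPM in liver and 0, 0.790 and 0 CPM in kidney, that is 3 kidney reads. The ratio of pooled reads was 2961, with a 95% counting interval of 1012 to 14364.

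miR-802, a miRNA studied in hepatic glucose and lipid metabolism, was detected in all 9 libraries. miR-802-5p had 775, 845 and 1242 CPM in liver (lowest, median, highest) and 15.7, 21.1 and 31.5 CPM in kidney. The tissues did not overlap, and the log2 difference was 5.48 ± 0.21 (adjusted p = 1.61e-16). miR-802-3p stood at 473 ± 101 CPM in liver and 11.8 ± 3.43 in kidney, a log2 difference of 5.47 ± 0.22, so that both arms differed to nearly the same degree.

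The study names 6 mature miRNAs as liver-enriched. All 6 were higher in liver, but 3 of them reached the read filter in liver only, so the count is not read against the share over all lines. The hepatocyte list makes up 4 of the 6. The remaining members were miR-31a-5p and miR-365-3p. miR-31a-5p, known as an epithelial miRNA of the rodent miR-31 family, had 755, 896 and 1247 CPM in liver and 34.7, 40.6 and 26.8 CPM in kidney (log2 difference 4.71 ± 0.19, adjusted p = 2.55e-16). miR-365-3p, encoded beside miR-193, had 153, 182 and 220 CPM in liver and 37.1, 46.9 and 20.5 CPM in kidney (2.23 ± 0.19, adjusted p = 2.31e-10). In neither did a kidney library reach the lowest liver library.

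**Figure D2:**
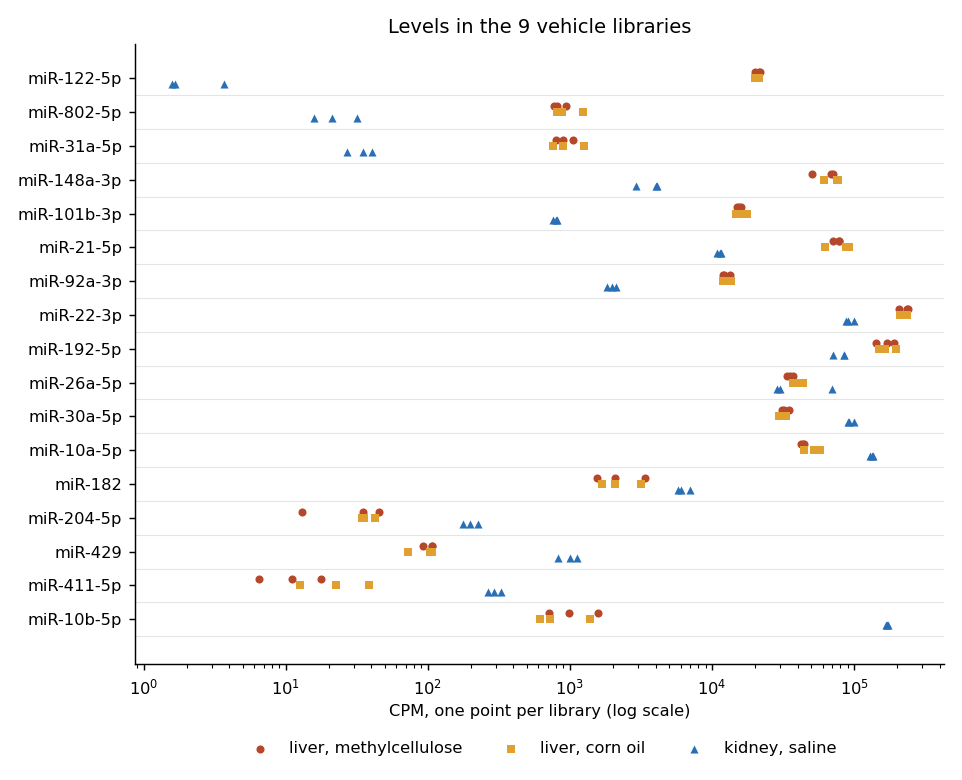
CPM of 17 miRNAs (x axis, log scale) in each of the 9 vehicle libraries, 1 point per library, with liver split by vehicle. The liver and kidney points are separate for all miRNAs shown but miR-26a-5p, for which kidney library 3 stands at 69386 CPM, above all liver libraries, and the other kidney libraries stand below them.

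Among 10 other miRNAs abundant in liver, 8 were higher in liver (42.9% of all lines), miR-101a-3p was higher in kidney and miR-26a-5p did not pass, with a median log2 difference of 1.18 beside 0.11 over all lines. miR-148a-3p, which targets DNA methyltransferase and lipid genes, had 50162, 69992 and 76923 CPM in liver and 4116, 2936 and 4006 CPM in kidney, a log2 difference of 4.19 ± 0.16 (adjusted p = 1.61e-16). Its partner arm miR-148a-5p had 6401 ± 612 CPM in liver and 253 ± 10.2 in kidney (4.66 ± 0.13). miR-21-5p, an abundant miRNA of growth and injury, had 61922, 77937 and 91814 CPM in liver and 10881, 11388 and 11498 CPM in kidney, which is 6.94-fold higher in liver (log2 2.80 ± 0.13). miR-193a-3p, described as a tumour suppressor, was 9.00-fold higher in liver (599 ± 115 against 67.5 ± 4.45 CPM).

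Of the miRNAs that both tissues hold in large amounts, several differed by about 2-fold. miR-192-5p was 2.11-fold higher in liver (log2 1.07 ± 0.12, adjusted p = 2.42e-08), and miR-22-3p was 2.44-fold higher (1.29 ± 0.10, adjusted p = 1.21e-10). miR-378a-3p, hosted in the Ppargc1b gene, had 15712, 18345 and 21256 CPM in liver and 8549, 9204 and 8997 CPM in kidney. It was thus 2.03-fold higher in liver (log2 1.02 ± 0.11, adjusted p = 9.39e-09). miR-378b, a related miRNA on another line of the table, was 6.69-fold higher in liver (1725 ± 214 against 258 ± 14.6 CPM). miR-3559-5p was 5.46-fold higher in liver.

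The Hox cluster list holds the miRNAs that lie among the Hox genes, and 5 of its 11 members had enough reads to be tested. All 5 were higher in kidney, but miR-196a-5p and miR-196b-5p reached the read filter in kidney only, so the count is not read against the share over all lines. miR-10b-5p had 612, 851 and 1578 CPM in liver (lowest, median, highest) against 168370 to 174103 in kidney. The tissues were 171-fold apart (log2 -7.42 ± 0.23, adjusted p = 1.59e-18). miR-10a-5p, its relative in the HoxB cluster, had 42607, 44129 and 57600 CPM in liver and 134635, 136859 and 130000 CPM in kidney. Here the difference was 2.82-fold (log2 -1.50 ± 0.10, adjusted p = 7.46e-12), so that liver held miR-10a-5p in bulk and miR-10b-5p at a low level.

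Apart from the 5′ end, where miR-10a-5p begins 2 bases earlier, these 2 sequences differ at 1 of 21 positions. The authors allowed 2 mismatches in their alignment, so reads of close relatives can be counted on each other's line, and this was not tested. The same holds for miR-196a-5p and miR-196b-5p, which differ at 1 of 22 positions.

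miR-196a-5p, a posterior Hox miRNA, had 166, 141 and 169 CPM in the kidney libraries (1246 reads) and no read in any of the 6 liver libraries. Against a floor of 3 reads over the liver group it was at least 191-fold higher in kidney, computed without TMM factors (kidney mean 167 ± 16.3 CPM on that scale). miR-196b-5p had 422, 409 and 313 CPM in kidney, and 1 read in all liver libraries against 3282 in kidney. The ratio of pooled reads was 1494, with a 95% counting interval of 268 to 59020. miR-10b-3p and miR-196a-3p, the minor arms, were also read in every kidney library (124 and 72 reads) and in no liver library.

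More miRNAs were read in 1 tissue only in kidney, where depth was greater. There were 41 lines with reads in every kidney library and none in liver, and 1 line, miR-511-5p, with reads in every liver library (12 in all) and none in kidney. With all libraries thinned to 410242 reads these numbers were 20 and 2. The rule asked for reads in 3 libraries for kidney but in 6 for liver. Thinning does not even this out, so the numbers of the tissues are not measured alike. miR-149-5p, with 27.2, 22.1 and 18.9 CPM in kidney (195 reads), was at least 27.6-fold higher there without TMM factors (kidney mean 24.1 ± 5.39 CPM on that scale). miR-369-3p, of the Dlk1-Dio3 cluster, was read 61 times in kidney and was at least 9.22-fold higher on that same scale.

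The miR-200 family and miR-141 restrain the epithelial-to-mesenchymal transition by targeting the Zeb factors. Of the 9 family members listed 5 were tested, and 5 of 5 were higher in kidney (36.4% of all lines), with a median log2 difference of -2.42. miR-429 had 72.5, 105 and 107 CPM in liver and 1113, 992 and 824 CPM in kidney, a 9.89-fold difference (log2 -3.31 ± 0.13, adjusted p = 2.16e-16). miR-200a-3p had 62.5, 125 and 157 CPM in liver and 1004, 981 and 954 CPM in kidney (-3.08 ± 0.17, adjusted p = 7.98e-14), the lowest liver value being that of corn oil library 2. Of the 5 listed members of the miR-183 cluster, known from sensory and other epithelia, 2 were tested. Of these, 2 of 2 were higher in kidney (36.4% of all lines), too few to set against that share. They were miR-183-5p at -2.47 ± 0.21 and miR-182 at -1.43 ± 0.17 on the log2 scale.

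Of the 13 tested members of the kidney epithelium list 8 were higher in kidney (36.4% of all lines) and 4 higher in liver (42.9%), with a median log2 difference of -0.68. The 8 were miR-204-5p and 7 arms of the miR-30 family, and the 4 were miR-192-5p, miR-194-5p, miR-378a-3p and miR-203a-3p. miR-30a-5p, the major member of a family known in podocytes and tubules, had 29712, 32534 and 34770 CPM in liver and 91092, 92431 and 100066 CPM in kidney (log2 -1.55 ± 0.09, adjusted p = 2.76e-13). miR-30c-5p stood at -1.69 ± 0.10 and miR-30e-5p at -1.17 ± 0.09 on the same scale, and no kidney library of either fell among the liver libraries. miR-204-5p, hosted in the Trpm3 gene, had 12.9, 35.1 and 45.5 CPM in liver and 227, 198 and 178 CPM in kidney (-2.59 ± 0.20, adjusted p = 4.93e-11).

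The miR-181 family, which tunes lymphocyte and other signalling, was higher in kidney in 4 of 4 members (36.4% of all lines, median log2 difference -1.98). The rarer members differed more: miR-181d-5p by -2.52 ± 0.19, miR-181c-5p by -2.21 ± 0.10 and miR-181b-5p by -1.75 ± 0.13. The most abundant, miR-181a-5p, had 15895 ± 283 CPM in kidney and 7530 ± 617 in liver (-1.08 ± 0.09). None of the 4 overlapped between tissues, which held for 73.1% of all lines tested.

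**Figure D3:**
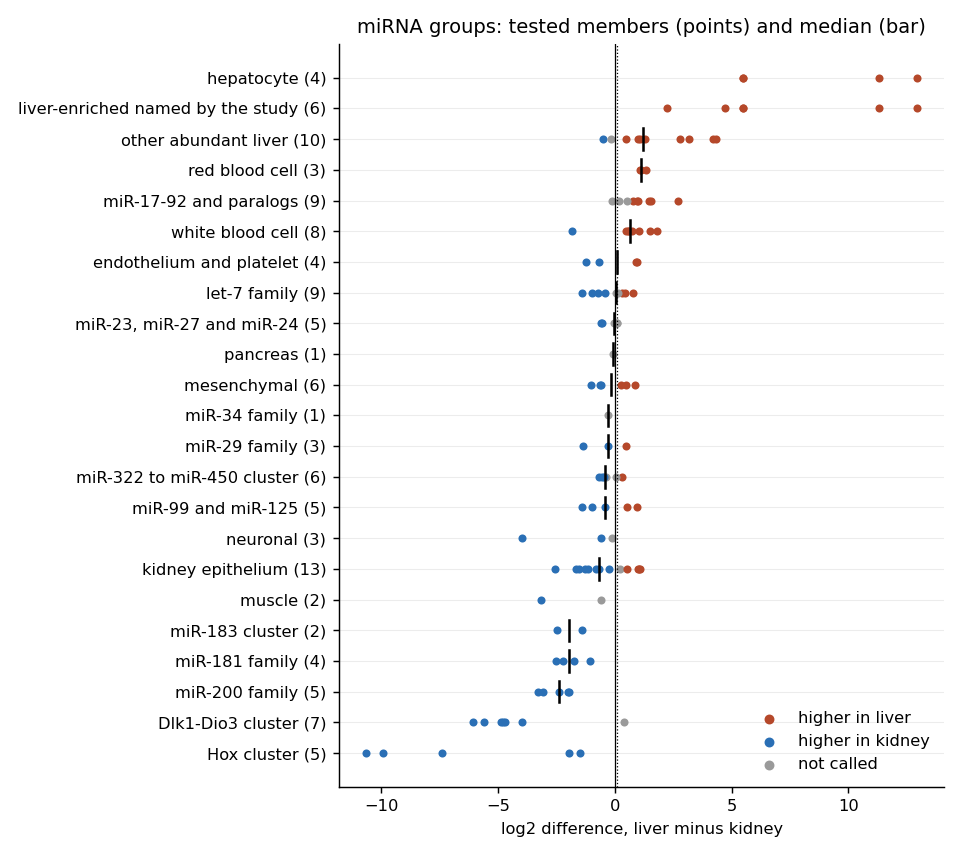
Log2 difference of liver minus kidney (x axis) for the tested members of each list (rows, number tested in brackets), with a bar at the list's median, left out where a called member reached the read filter in 1 tissue only, and a dotted line at the median of all 275 lines tested. The hepatocyte list lies right of 0, up to 12.94, and the Hox cluster left of it, down to -10.64 for miR-196a-5p, a fitted value that depends on the prior count as liver had 0 reads; the let-7, miR-29 and mesenchymal lists have members on both sides.

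The imprinted Dlk1-Dio3 locus carries a large array of miRNAs that are expressed from the maternal chromosome and are prominent in brain and embryo. Of 42 members listed 39 had reads and 7 could be tested, 6 of them higher in kidney, while miR-127-3p did not pass. Of the 6, all but miR-411-5p reached the read filter in kidney only, which favours that direction, so the values are given and the count is not read further. miR-541-5p had 0, 3.64 and 8.56 CPM in liver and 247, 203 and 220 CPM in kidney (-5.62 ± 0.26, adjusted p = 4.67e-15). miR-411-5p had 6.50, 15.2 and 38.5 CPM in liver and 326, 290 and 263 CPM in kidney (-3.98 ± 0.24), and miR-410-3p was at -4.70 ± 0.31. The other arm of 1 of these hairpins, miR-410-5p, named after its values were seen, had 20.2, 29.0 and 55.5 CPM in liver and 12.7, 15.3 and 14.2 CPM in kidney. It was higher in liver (log2 1.17 ± 0.27, adjusted p = 3.81e-04), from 107 liver and 113 kidney reads. This arm reached the read filter in liver only, which favours that direction.

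Outside these lists, and among miRNAs of at least 100 CPM in kidney, the excess there was large for miR-653-5p and miR-218a-5p. miR-653-5p, encoded in the calcitonin receptor gene, had 121, 150 and 109 CPM in kidney and 3 reads in all liver libraries. The ratio of pooled reads was 164, with a 95% counting interval of 55.8 to 794. miR-218a-5p, hosted in the Slit genes, had 11.3, 21.2 and 27.1 CPM in liver and 315, 328 and 394 CPM in kidney (log2 -4.12 ± 0.19, adjusted p = 2.76e-15). Neither overlapped between the tissues, but the rule that named them asked for this, and it held for 73.1% of all lines tested. With 3 liver reads, miR-653-5p reached the read filter in kidney only, which favours that direction.

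Markers of other cells of the tissues moved as well, which bears on the lists above, and their part in those differences was not tested. The red blood cell list had 3 of 3 tested members higher in liver (42.9% of all lines, median log2 1.13). Its summed level was 605 to 1285 CPM in liver and 361 to 386 in kidney. miR-451-5p, made in erythroid cells, had 474, 691 and 1007 CPM in liver and 291, 272 and 279 CPM in kidney (1.32 ± 0.18, adjusted p = 7.72e-07). miR-144-3p, from the same transcript, was at 1.13 ± 0.21.

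Of 8 white blood cell miRNAs, 7 were higher in liver (42.9% of all lines) and 1, miR-342-3p, higher in kidney (36.4%), with a median log2 difference of 0.66. The summed level was 3700 to 4917 CPM in liver and 1786 to 2339 in kidney. miR-142-3p, which is specific to blood lineages, had 237, 307 and 340 CPM in liver and 79.8, 89.6 and 89.8 CPM in kidney (1.81 ± 0.15, adjusted p = 1.33e-10), and miR-142-5p was at 1.51 ± 0.13. In the endothelium list both arms of miR-126a, which supports vessel growth, were higher in liver (0.94 ± 0.09 for miR-126a-3p and 0.92 ± 0.12 for miR-126a-5p), while miR-221-3p and miR-222-3p were higher in kidney. The summed level of these 4 was 16787 to 22650 CPM in liver and 10320 to 11004 in kidney.

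Of 6 mesenchymal miRNAs, 3 were higher in liver and 3 higher in kidney, shares near the 42.9% and 36.4% of all lines (median log2 -0.17, summed level 52905 to 66629 CPM in liver and 39096 to 44501 in kidney). miR-145-5p, stood at 0.26 ± 0.11 and did not pass with RLE factors (0.11, adjusted p = 0.354), with total counts (0.297) or without kidney library 1, 2 or 3 (0.231, 0.403 and 0.885). miR-143-3p, of smooth muscle, had 51646, 54652 and 65264 CPM in liver and 41847, 37461 and 43032 CPM in kidney (log2 0.47 ± 0.10, adjusted p = 2.06e-04). miR-199a-3p, of fibroblasts and stellate cells, went the other way at -0.62 ± 0.11. In the muscle list miR-1-3p and miR-208a-3p had no reads in these libraries, miR-499-5p was higher in kidney (-3.17 ± 0.22; 119 ± 3.77 against 13.1 ± 5.03 CPM) and miR-133a-3p, at -0.59 ± 0.29, did not pass (adjusted p = 0.067), though it did with RLE factors (0.024) or total counts (0.025). Here miR-499-5p reached the read filter in kidney only, which favours that direction. The muscle list summed to 17.6 to 39.0 CPM in liver and 138 to 146 in kidney. In the pancreas list only miR-375-3p was tested, with 285 ± 34.7 CPM in liver and 313 ± 98.5 in kidney (adjusted p = 0.54).

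In the neuronal list, with summed levels of 37.4 to 83.1 CPM in liver and 212 to 317 in kidney, miR-9a-5p, known from the nervous system, was higher in kidney, with 5.04, 10.7 and 17.8 CPM in liver and 237, 145 and 164 CPM in kidney (-3.98 ± 0.25). It reached the read filter in kidney only, which favours that direction. The other tested members were miR-128-3p, which passed in the same direction with overlapping groups (-0.59 ± 0.26, adjusted p = 0.041), and miR-138-5p, which did not pass. Without corn oil library 2, or without methylcellulose library 1 or 2 or kidney library 1, miR-128-3p did not pass either (adjusted p 0.141, 0.149, 0.112 and 0.083).

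A seed was known for miRNAs that fell into 171 tested seed families, whose summed reads differed in 142 (83.0%) by edgeR, 64 (37.4%) higher in liver and 78 (45.6%) higher in kidney. This split depended on the scaling, and with the TMM factors of the mature miRNAs it was 77 and 55, as the median log2 difference went from -0.09 to 0.30. At the level of single miRNAs, 28 families had 2 or more tested members. In 9 the calls were all toward liver, in 11 all toward kidney, and in 7 some members were higher in liver and others in kidney; in 1 no member passed.

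The widest gap was in miR-101. miR-101b-3p had 14703, 15440 and 17728 CPM in liver and 761, 805 and 795 CPM in kidney, a 20.0-fold excess in liver (log2 4.32 ± 0.12, adjusted p = 1.53e-19). miR-101a-3p, which differs from it at 1 of 21 positions, had 6230, 6513 and 7812 CPM in liver and 8159, 10177 and 10394 CPM in kidney, and was higher in kidney (-0.50 ± 0.10, adjusted p = 9.67e-05). miR-101 is known in human cells as a repressor of the Ezh2 methyltransferase, and in neither member did the tissues overlap.

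The let-7 family, known for its role in the timing of development and for repression of growth genes, had 3 members higher in liver, 4 higher in kidney and 2 that did not pass (median log2 difference 0.05). These shares are near the 42.9% and 36.4% of all lines. let-7e-5p had 186, 227 and 237 CPM in liver and 554, 568 and 674 CPM in kidney (-1.42 ± 0.12, adjusted p = 1.59e-10). let-7b-5p was at -0.98 ± 0.10, miR-98-5p at -0.71 ± 0.14 and let-7c-5p at -0.44 ± 0.09. In the other direction let-7a-5p had 5893, 6366 and 7356 CPM in liver and 3644, 4244 and 3457 CPM in kidney (0.79 ± 0.10, adjusted p = 3.54e-07).

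The liver excess of let-7d-5p and let-7f-5p was small, and it fell whichever kidney library was left out. Without kidney library 1, 2 or 3, let-7d-5p stood at 0.28, 0.37 and 0.20, and let-7f-5p at 0.13, 0.13 and 0.19. In the same fits the median over all lines was -0.04, 0.05 and -0.05, beside 0.11 with all libraries. The part of scaling in this was not tested. let-7d-5p stood at 0.44 ± 0.11 (adjusted p = 7.62e-04), and its adjusted p was 0.092 without kidney library 1 and 0.143 without kidney library 3. let-7f-5p stood at 0.29 ± 0.10 (adjusted p = 0.011) and did not pass without kidney library 1, 2 or 3 (0.237, 0.248 and 0.106) nor with RLE factors (0.174) or total counts (0.071). let-7a-5p differs from let-7e-5p, let-7f-5p and let-7c-5p at 1 of 22 positions each, so that reads may be shared within the family.

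In the miR-29 family, which restrains collagen genes, miR-29a-3p was higher in liver (1862 ± 172 against 1349 ± 65.0 CPM, log2 0.46 ± 0.10) while miR-29b-3p (-1.38 ± 0.18) and miR-29c-3p (-0.31 ± 0.12, adjusted p = 0.022) were higher in kidney. The call of miR-29a-3p was lost without kidney library 1 (adjusted p = 0.057) or 3 (0.070), and that of miR-29c-3p without methylcellulose library 3 (0.057). miR-29a-3p and miR-29c-3p differ at 1 of 22 positions, so their reads may be shared, which was not tested. In the miR-125 family miR-125a-5p (1197 ± 36.8 CPM in kidney, 598 ± 85.6 in liver) and miR-351-5p (log2 -0.56 ± 0.12) were higher in kidney. miR-125b-5p was higher in liver (0.50 ± 0.12), but not without kidney library 3 (adjusted p = 0.098). miR-92a-3p, of the growth-promoting miR-17-92 cluster, was 6.43-fold higher in liver (12730 ± 764 against 1978 ± 148 CPM, log2 2.68 ± 0.11) and miR-25-3p 2.00-fold higher. miR-363-3p and miR-92b-3p of the same seed, with 47.4 ± 5.69 and 18.8 ± 4.07 CPM in kidney, were higher there (-1.38 ± 0.25 and -0.86 ± 0.29), the second not without kidney library 1 (adjusted p = 0.055) or corn oil library 3 (0.051).

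**Figure D4:**
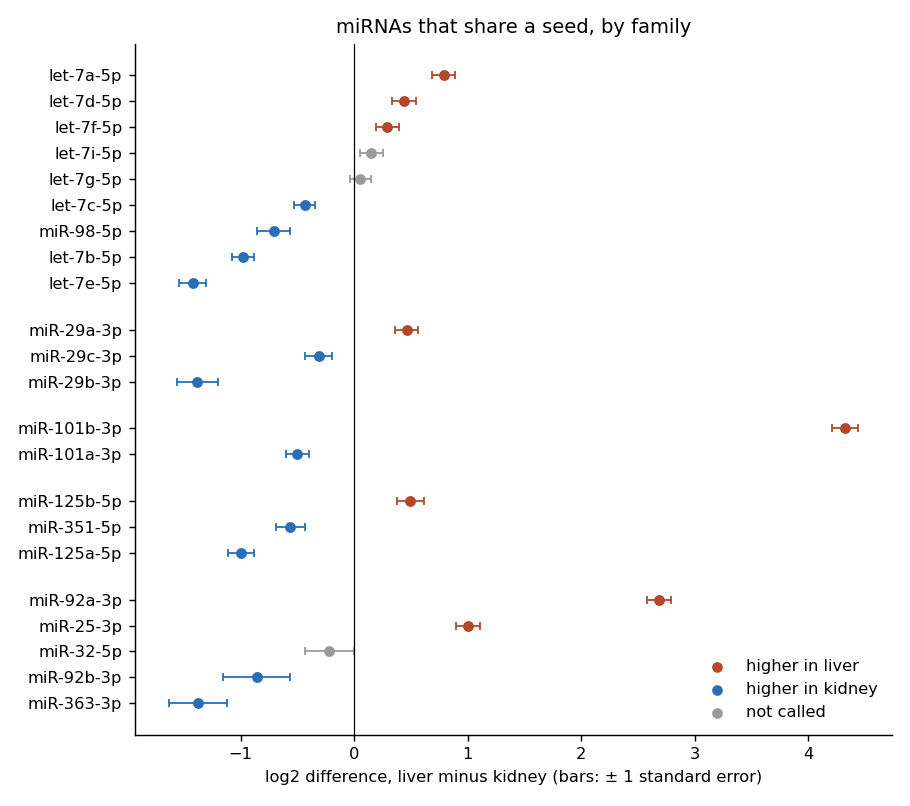
Log2 difference of liver minus kidney (x axis, point and ± 1 SE) for the tested members of 5 families that share a seed, in rows by family. In each family some members lie right of 0 (higher in liver) and others left of it; the widest gap is between miR-101b-3p at 4.32 and miR-101a-3p at -0.50.

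Hairpins that are neighbours in the genome were compared next, since they can share a transcript. In GRCr8, 28 groups of at least 2 tested hairpins lay within 10 kb of each other on 1 strand. In 16 of them all hairpins were called in 1 direction, and in 6 the calls went both ways. Over all lines, 42.9% were higher in liver and 36.4% higher in kidney. Each hairpin entered by its more abundant tested arm, so that miR-410-5p is left out. Groups called toward kidney included miR-99b-5p, let-7e-5p and miR-125a-5p, the 6 tested hairpins of the Dlk1-Dio3 array from miR-411-5p to miR-410-3p (-6.08 to -3.98), and miR-653-5p with miR-489-3p. Of those 6, all but miR-411-5p reached the read filter in kidney only, which favours that direction. In liver, miR-653-5p and miR-489-3p had 3 and 1 reads. Groups called toward liver included miR-192-5p with miR-194-5p (1.00 to 1.07), miR-144-3p with miR-451-5p, and let-7a-5p with let-7f-5p and let-7d-5p. In the miR-17-92 cluster 5 of 6 hairpins were higher in liver, from 0.50 to 2.68 over all 6, with miR-19a-3p not passing and miR-20a-5p at 1.56 ± 0.16. Mature miRNAs with copies at several loci appear in more than 1 group, and their reads cannot be assigned to a locus.

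The tissues could also differ in which arm of a hairpin was read. Both arms passed the filter in the miRNA comparison for 47 hairpins: both were higher in liver in 24 and both higher in kidney in 7, only 1 arm passed in 10, none in 3, and in 3 (miR-410, miR-30d and miR-148b) the arms had opposite calls. For miR-410, each arm reached the read filter only in the tissue where it was higher. The ratio of 5p to 3p reads within a library, which needs no scaling, was tested with limma for 88 hairpins, and 12 (13.6%) passed, 4 (4.55%) with a higher 5p share in liver and 8 (9.09%) with a higher share in kidney. For miR-10b, 1 of the 12, the 3p arm had 0 liver reads beside 3304 of the 5p arm, so its ratio rests on the pseudocount.

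The arm with more reads differed between tissues in 2 of the 88. For miR-33, hosted in the Srebf2 gene, the 5p share of reads was 30.4% (lowest), 39.7% (median) and 44.1% (highest) in liver and 62.2%, 69.1% and 64.7% in kidney (log2 ratio difference -1.54 ± 0.24, adjusted p = 0.00364), a call lost with edgeR's diffSpliceDGE (adjusted p = 0.068). The reads were few, with 64 of the 5p and 100 of the 3p arm in all liver libraries. For miR-345 the 5p share was 55.6%, 67.2% and 72.8% in liver and 38.1%, 48.0% and 44.9% in kidney (1.28 ± 0.27, adjusted p = 0.0150), and this call was lost without kidney library 1 (0.064). For miR-872 it was 69.3%, 74.1% and 76.5% in liver and 57.8%, 48.5% and 63.5% in kidney (1.08 ± 0.23, adjusted p = 0.0150), which did not hold without kidney library 1 (0.055) or 2 (0.055) or with diffSpliceDGE (0.068). miR-21 kept over 98% of its reads on the 5p arm in all libraries and its ratio differed by limma at 1.27 ± 0.21, but not with diffSpliceDGE (adjusted p = 0.999).

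Some abundant miRNAs did not differ beyond the spread between libraries. miR-27b-3p, of the miR-23b cluster, had 18822 ± 2465 CPM in liver and 17487 ± 238 in kidney (log2 0.11 ± 0.11, adjusted p = 0.363). miR-26a-5p, a broadly expressed miRNA, had 33824, 37041 and 43566 CPM in liver and 28579, 29882 and 69386 CPM in kidney, so that kidney library 3 lay above and the others below every liver library. It stood at -0.17 ± 0.19 (adjusted p = 0.411) with all libraries, at 0.18 without kidney library 3, and passed in the direction of kidney without kidney library 1 (-0.49, adjusted p = 0.020) or 2 (-0.43, 0.024). miR-23b-3p, with 1143, 1311 and 2816 CPM in kidney and 1158 ± 126 in liver, passed at -0.59 ± 0.18 and stood at -0.29 without kidney library 3 (adjusted p = 0.028). Its relative from another locus, miR-23a-3p, which differs from it at 1 of 21 positions, was at -0.56 ± 0.12 with no overlap. Reads may be shared between the lines of this pair, which was not tested.

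Whether the vehicle of the liver rats changed these levels was asked by comparing the 3 methylcellulose with the 3 corn oil livers. Of 246 lines tested by edgeR, 0 (0.0%) passed, with 12 at an unadjusted p under 0.05, and DESeq2 gave 0 and 4. The smallest adjusted p was 0.181, for miR-126a-5p, with 14403 ± 891 CPM after methylcellulose and 18643 ± 1108 after corn oil (log2 -0.35 ± 0.09). The next were miR-411-5p (-1.16 ± 0.45) and miR-145-3p (-0.55 ± 0.22), both at an adjusted p of 0.756. With methylcellulose livers alone, 105 lines were higher in liver and 101 higher in kidney, and with corn oil livers alone 105 and 97.

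The same tissues of treated rats, which share no library with the vehicle rats, gave a second measure of the tissue difference. These were 6 livers 24 h after APAP (1250 mg/kg) or CCl4 (1500 mg/kg) and 3 kidneys 72 h after cisplatin (5 mg/kg). Of 281 lines tested by edgeR, 211 (75.1%) passed, 103 (36.7%) higher in liver and 108 (38.4%) higher in kidney, and the tissues did not overlap for 69.8%. Of the 218 lines called in vehicle rats 215 could be tested here, 213 lay in the same direction and 189 passed in that direction, and 0 passed in the opposite one. This is 86.7% of the calls in vehicle rats and 89.6% of those in treated rats. Across 271 lines tested in both, Pearson's r of the log2 differences was 0.978 and Spearman's rho 0.968, as a description across miRNAs.

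miR-122-5p stood at 13.12 in treated and 12.94 in vehicle rats, and miR-10b-5p at -7.84 and -7.42. Larger in treated rats were miR-451-5p (2.66 against 1.32) and miR-144-3p (2.67 against 1.13), and smaller was miR-143-3p (0.13 against 0.47), which did not pass there. The 2 lines with opposite signs were let-7f-5p and miR-145-5p, at -0.08 and -0.09 in treated rats, neither passing. Whether vehicle and treated rats differ in these tissue differences was not tested, and in the treated groups the toxicant cannot be told apart from the tissue either.

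**Figure D5:**
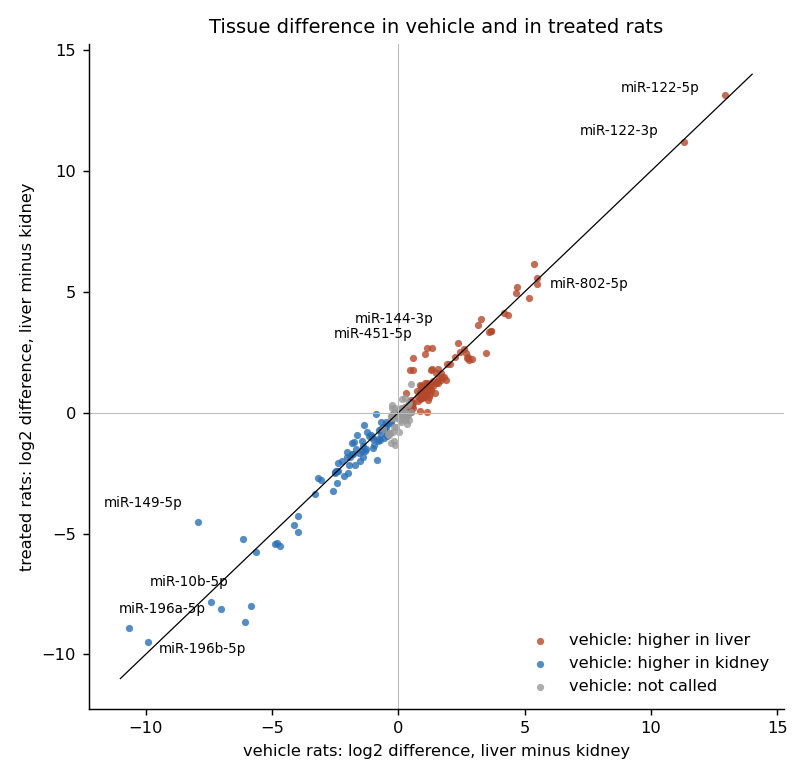
Log2 difference of liver minus kidney in vehicle rats (x axis) and in treated rats (y axis) for miRNAs tested in both, with further copies left out and colour by the call in vehicle rats. Points lie along the line of equal difference from miR-196b-5p at -9.92 and -9.50 to miR-122-5p at 12.94 and 13.12.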

How the data were processed

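Small RNA libraries (TruSeq kit, GAIIx, reads of 36 bases) were made from total RNA of snap-frozen tissue, 1 library per rat. The authors clipped adaptors, aligned reads with OSA to Rnor_5.0 and to miRBase, allowing 2 mismatches and leaving out reads with over 10 genomic locations, and deposited raw counts of reads per mature miRNA, not normalized. Of 832 lines, 79 are further copies of a mature miRNA; copies share reads and are not independent evidence. Every column was matched to a sample by its label.

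Main test: quasi-likelihood fits in edgeR (4.0.16, under R 4.3.3), after TMM scaling and removal of lines with few reads by filterByExpr (count minimum 10, total minimum 15), with p-values adjusted over all lines tested. The SE printed with a log2 difference was derived from that fit's F statistic. The authors' test, DESeq2 (1.42.0 here), was an alternative. Reads of miRNAs with 1 seed were summed for the seed families. Arm ratios, log2 of 5p over 3p reads with a pseudocount of 0.5 and at least 10 reads of the arms together in each library and 10 of the minor arm over all libraries, were tested with limma 3.58.1. Each miRNA named was among the 15 largest differences in a direction (called, groups not overlapping, at least 100 CPM), the 10 most abundant per tissue, the 2 smallest p per list, those the study names, called members (at least 100 CPM) of seed families with both directions, the 8 smallest p for arm ratios, the 5 most abundant in 1 tissue only, or the 3 smallest p between vehicles. Others are named as members of a list, a family, a neighbour group or a count of 5 or fewer. The members and the 23 lists were chosen with earlier results of these data known. Scripts were tested on simulated data. Tables and figures used Python 3.11.15, pandas 2.3.3, NumPy 2.4.6, SciPy 1.17.1 and matplotlib 3.10.9.

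Of the lists not described in the report, miR-17-92 and paralogs had 6 of 9 members higher in liver and 0 higher in kidney. The list miR-99 and miR-125 had 2 and 3 of 5, and miR-23, miR-27 and miR-24 had 0 and 2 of 5. The miR-322 to miR-450 cluster had 1 and 3 of 6 (miR-450a-5p and miR-351-5p among the 3). The miR-34 family had 1 tested member, miR-34c-5p, not called. Over all lines, 42.9% were higher in liver and 36.4% higher in kidney. In miR-17-92 and paralogs, 1 member higher in liver and 1 not called reached the read filter in 1 tissue only.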

Additional observations from a re-analysis of the deposited data

Results flagged for a closer look

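In 5 of the 76 named miRNAs tested for this, 1 of the 6 liver libraries stood apart from the rest by Dixon's ratio (gap to the nearest library over the whole range, at its 95% critical value), and chance flags about 1 in 20 groups, so this number is near what chance gives. miR-122-3p had 1356 CPM in methylcellulose library 1 and 1129 to 1188 in the others (ratio 0.740). miR-802-5p had 1242 CPM in corn oil library 1 and 775 to 944 in the others (0.639). miR-193a-3p had 817 CPM in methylcellulose library 1 and 492 to 612 in the others (0.631). miR-204-5p had 12.9 CPM in methylcellulose library 3 and 34.2 to 45.5 in the others (0.654). miR-196b-5p had its only liver read in corn oil library 2 (2.50 CPM) and 0 in the others (1). With 1 read the ratio is 1 whichever library holds it, so this flag, though counted in the 5, tests nothing. All 5 kept their direction and stayed past the threshold when that library was left out.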

How the results depend on the processing

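Of the main count of 218 differing lines, 118 were higher in liver and 100 higher in kidney, and leaving out each library in turn gave 209 to 221 in all, 102 to 121 toward liver and 97 to 117 toward kidney. RLE factors gave 106 and 113, and total counts 107 and 111. The count toward kidney was 182 with no filter on low counts (127 toward liver) and 154 with DESeq2 (116 toward liver), where more lines were tested. Between the liver vehicles, leaving out 1 library gave 0 to 2 calls. Treated rats gave 207 to 228 calls and seed families 126 to 140 in the same way. For seed families, 2 alternatives were chosen after seeing the data: 137 with copies counted once, 132 with the TMM factors of the mature miRNAs. The summed let-7 family (GAGGUAG) stood at -0.18, at 0.11 with total counts and at 0.23 with those factors. Arm ratios depended most on the settings: 12 calls became 33 with a pseudocount of 2, 4 with edgeR's diffSpliceDGE and 5 to 14 with a library left out, and the cause was not tested. At equal depth 2 lines were read only in liver (in all 6 libraries) and 20 only in kidney (in all 3). Liver and kidney replicates are different rats, so their numbers pair no animals. Deviations of same-numbered libraries correlated at -0.22 to 0.15, beside -0.26 to 0.22 for different numbers. Whether equal numbers shared a step of the processing was not tested. With the replicate number as a block 220 lines passed, and 7 arm ratios. In corn oil library 2, 1 read was 2.50 CPM, and 57 lines were tested without a call, which does not show equal levels.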
